A study of Homo sapiens with 3 samples.

Results

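The miR-15/16 family was followed across 3 small RNA libraries of CAL-27, an established line of human tongue squamous carcinoma cells. Its members were taken by name: hsa-miR-15a-5p, hsa-miR-15b-5p, hsa-miR-15b-3p, hsa-miR-16-5p, hsa-miR-195-5p, hsa-miR-424-5p and hsa-miR-503-5p, given below without the species prefix. All 7 were among the 1149 mature miRNAs with values. RR was the radioresistant group, obtained by giving CAL-27 cells 2 Gy of X-rays a day over 2 cycles of 5 days, with 2 weeks of recovery after each cycle and isolation of single-cell clones at the end. Mock was given 2 Gy once, by the series' design text. CC was the untreated control, also established as clones from the parental line. Each group had 1 library, so nothing could be checked against replicates and p-values are left out. The sources used here do not say whether a library held RNA of 1 clone or several. The treatment tags read IR for Mock and Gy2 for RR, which leaves some doubt over which library received which exposure, and directions for Mock and RR refer to the libraries labelled so.

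miRNAs guide Argonaute proteins to messenger RNAs, mostly by pairing of the seed, the bases near their 5′ end. The miR-15/16 family is known for restraining the cell cycle: its targets include the G1 cyclins CCND1 and CCNE1, the kinases CDK6, CHEK1 and WEE1, and the survival factor BCL2. MIR15A and MIR16-1 lie in the DLEU2 locus, which is often deleted in chronic lymphocytic leukaemia, and MIR15B and MIR16-2 lie inside SMC4, a gene for a condensin subunit that is active in dividing cells.

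The mature sequences show what unites the members and which of them stands apart. They are from RefSeq (GRCh38.p14), equal those listed with the deposited values for all 7 members, and run 5′ to 3′ with bases 2 to 8, the seed, in capitals.
miR-15b-5p: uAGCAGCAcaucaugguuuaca
miR-15a-5p: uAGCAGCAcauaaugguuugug
miR-16-5p: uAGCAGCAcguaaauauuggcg
miR-195-5p: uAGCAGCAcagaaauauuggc
miR-424-5p: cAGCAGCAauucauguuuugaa
miR-503-5p: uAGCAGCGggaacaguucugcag
miR-15b-3p: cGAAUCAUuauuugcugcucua
The seed AGCAGCA was shared by miR-15a-5p, miR-15b-5p, miR-16-5p, miR-195-5p and miR-424-5p. One further listed miRNA, miR-6838-5p, had it too, with 0 reads in RR, 1 in Mock and 0 in CC. miR-503-5p carried the change A8G relative to miR-15b-5p, counted from the 5′ end, so that its seed matched through base 7 only. miR-15b-3p is the opposite arm of the MIR15B hairpin and has the unrelated seed GAAUCAU. Beyond the seed the members could be told apart in reads: miR-15a-5p differed from miR-15b-5p at 4 of 22 bases and miR-16-5p at 8 of 22. miR-16-5p and miR-195-5p were the closest pair, with 2 differences over 21 bases. The sources used here do not say how reads matching several miRNAs were assigned.

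The members come from 4 loci. MIR15B (chr3:160404588-160404685, plus strand) and MIR16-2 (chr3:160404745-160404825, plus strand) lie in an intron of SMC4 on the same strand, by GENCODE release 29. MIR15A (chr13:50049119-50049201, minus strand) overlaps an exon of a DLEU2 transcript, and MIR16-1 (chr13:50048973-50049061) lies in a DLEU2 intron. MIR195 (chr17:7017615-7017701, minus strand) overlaps an exon of MIR497HG. MIR424 (chrX:134546614-134546711, minus strand) overlaps an exon of the long non-coding RNA MIR503HG, and MIR503 (chrX:134546328-134546398) lies in an intron of it. miR-16-5p is cut from both MIR16-1 and MIR16-2 with an identical sequence, so its reads do not tell the loci apart, whereas the 3p arms of those hairpins do.

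Values are rpm, meaning reads in every 1000000 of the total that the authors scaled to, and this total came out at 10473400 reads in RR, 10632785 in Mock and 10769990 in CC. The listed miRNAs took 20.5% of the total in RR, 23.2% in Mock and 16.3% in CC, so a miRNA with an unchanged share of the miRNA reads would not have an rpm ratio of 1. Intervals are exact 95% intervals that cover counting error only, and not the spread between cultures or library preparations. PCR copies are not independent molecules, so the intervals may be too narrow even for counting error. A floor of 3 reads was 0.286 rpm in RR, 0.282 rpm in Mock and 0.279 rpm in CC. Squamous epithelial marker miRNAs, all 5 of them detected, summed to 44137 rpm in RR, 28369 rpm in Mock and 37902 rpm in CC. The largest part of that sum was miR-205-5p, with 29651 rpm in RR, 14174 rpm in Mock and 25945 rpm in CC. The other 4 had ratios of Mock over CC from 1.04-fold for miR-203a-3p to 2.07-fold for miR-141-3p, and the list's median log2 ratio was 0.25. In this bulk RNA, fewer cells with a miRNA and less of it per cell cannot be told apart.

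hsa-miR-15b-5p, a guide strand of the family, was its most abundant member in each library. Its level in RR was 114 rpm (95% Poisson interval 107 to 120), 183 rpm in Mock (175 to 191) and 120 rpm in CC (114 to 127). RR and CC overlapped within counting error, and Mock lay above both. miR-16-5p, the member best known as a brake on cell cycle entry, came to 51.7 rpm in RR (47.4 to 56.2), 127 rpm in Mock (120 to 134) and 46.8 rpm in CC (42.8 to 51.1). RR and CC again overlapped, with Mock well apart. miR-15b-3p, the passenger arm, had 32.1 rpm in RR (28.7 to 35.7), 49.3 rpm in Mock (45.2 to 53.7) and 36.8 rpm in CC (33.2 to 40.6). By level, miR-15b-5p ranked 91st of 1149 miRNAs in RR, 74th in Mock and 80th in CC.

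The other 4 members were scarce. miR-503-5p, which also represses G1 cyclins, had 5.35 rpm in RR (56 reads), 7.43 rpm in Mock (79 reads) and 4.18 rpm in CC (45 reads). miR-15a-5p, the partner of miR-16-5p in the DLEU2 cluster, had 1.53 rpm in RR (16 reads), 2.73 rpm in Mock (29 reads) and 0.836 rpm in CC (9 reads). miR-424-5p, a miRNA of the X-linked cluster, had 0.573 rpm in RR (6 reads), 1.41 rpm in Mock (15 reads) and 0.650 rpm in CC (7 reads). miR-195-5p, a close relative of miR-16-5p, had 4 reads in RR, 4 in Mock and 2 in CC. These were just above the floor of 3 reads in RR and Mock, and below it in CC. The order miR-15b-5p, miR-16-5p, miR-15b-3p, miR-503-5p, miR-15a-5p was thus the same in the 3 libraries, and no interval of one overlapped that of the next within a library. miR-15a-5p and miR-424-5p, next to each other in the order, overlapped within counting error in RR, Mock and CC, as did miR-424-5p and miR-195-5p. Of the 7 members, 3 averaged at least 10 rpm across libraries, the level below which folds were not counted.

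**Figure D1:**
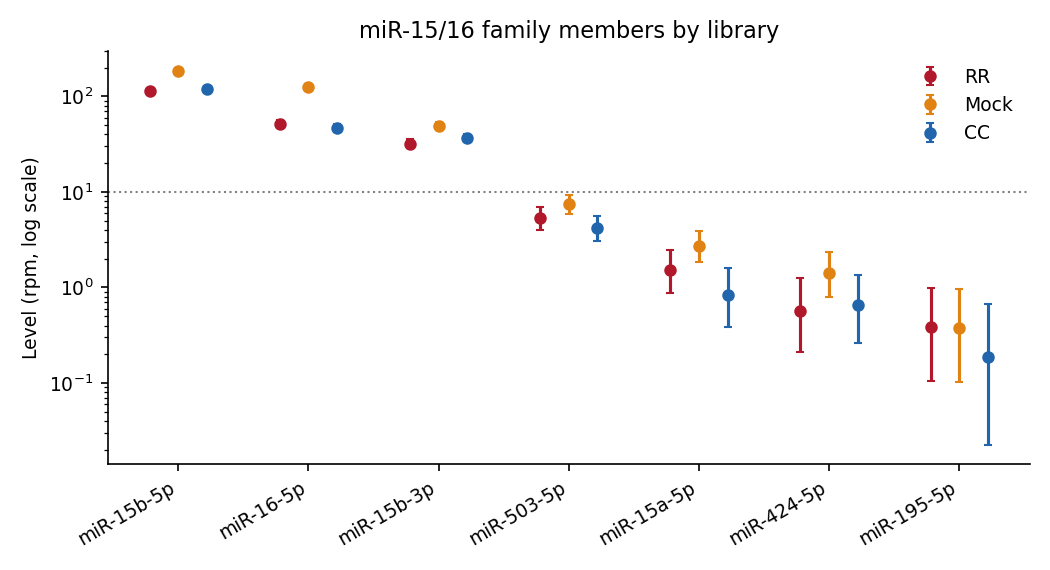
Level of each family member in RR, Mock and CC, in rpm on a log axis, with bars for the 95% Poisson interval and a dotted line at 10 rpm. miR-15b-5p, miR-16-5p and miR-15b-3p lie above the line in each library with Mock highest, and the other 4 members lie below it.

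Summed over the 6 listed miRNAs with the seed AGCAGCA, the family came to 168 rpm in RR (160 to 176), 314 rpm in Mock (304 to 325) and 169 rpm in CC (161 to 177). RR and CC held the same amount within counting error on this scale, and Mock held more. RR over CC was 0.994-fold (0.930 to 1.06), Mock over CC 1.86-fold (1.76 to 1.97) and RR over Mock 0.534-fold (0.504 to 0.566). The family's share of all listed miRNA reads was 0.0818% in RR (Clopper-Pearson 0.0780% to 0.0857%), 0.136% in Mock (0.131% to 0.140%) and 0.104% in CC (0.0991% to 0.109%). On that share RR lay below CC, with a ratio of 0.788 (0.737 to 0.842), and Mock over CC was reduced to 1.31-fold (1.23 to 1.38).

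The make-up of the family also differed between libraries, in a measure that no scaling can move. miR-15b-5p gave 67.7% of the family's reads in RR (65.5% to 69.9%), 58.2% in Mock (56.5% to 59.9%) and 71.3% in CC (69.1% to 73.4%). miR-16-5p gave 30.8% in RR (28.6% to 33.0%), 40.3% in Mock (38.7% to 42%) and 27.7% in CC (25.7% to 29.8%). There were 0.455 reads of miR-16-5p for each read of miR-15b-5p in RR, 0.693 in Mock and 0.389 in CC. That balance was 1.78-fold higher in Mock than in CC (1.57 to 2.02) and 1.17-fold higher in RR than in CC (1.01 to 1.35). It was 0.656-fold in RR relative to Mock (0.579 to 0.743).

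**Figure D2:**
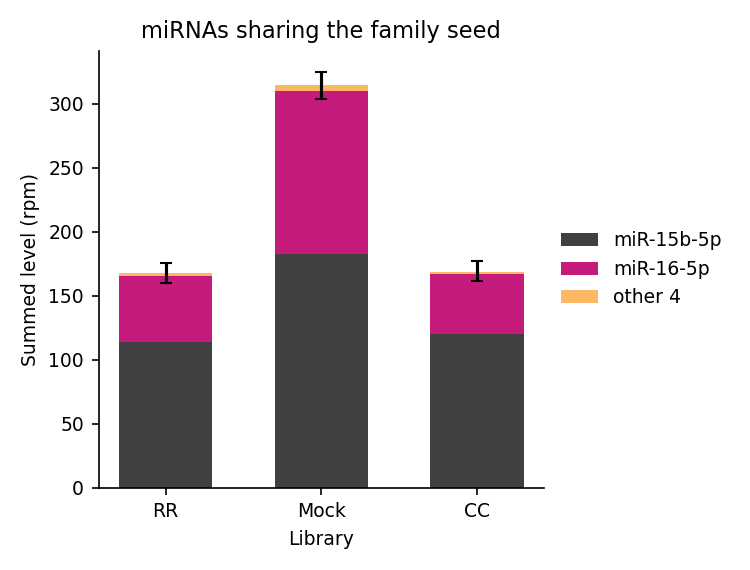
Summed rpm of the 6 listed miRNAs that share the family seed, stacked by miRNA for RR, Mock and CC, with bars for the 95% Poisson interval of the sum. The sums of RR (168 rpm) and CC (169 rpm) are alike, and Mock (314 rpm) holds more of both miR-15b-5p and miR-16-5p.

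RR over CC sets the library of the radioresistant group against that of the untreated control. The measured members stayed near 1-fold, and lay low among the miRNAs of this comparison. miR-15b-5p was at 0.944-fold (0.872 to 1.02), miR-15b-3p at 0.873-fold (0.752 to 1.01) and miR-16-5p at 1.10-fold (0.976 to 1.25), each with an interval that includes 1. None of the 3 measured members differed by 2-fold or more, beside 1.44% of the 208 miRNAs that averaged 10 rpm or more (0.962% higher and 0.481% lower). Log2 ratios of rpm + 1 were -0.08 for miR-15b-5p, -0.19 for miR-15b-3p and 0.14 for miR-16-5p, against a median of 0.36 over the 208. miR-15b-3p ranked 204th from the highest ratio of 208, miR-15b-5p 197th and miR-16-5p 168th. With the libraries scaled by median ratios, which took that median to -0.02, the log2 ratios were -0.46, -0.56 and -0.24 for miR-15b-5p, miR-15b-3p and miR-16-5p, so the sign of miR-16-5p depended on the scale. Of the scarce members, miR-15a-5p was at 1.83-fold (0.761 to 4.69) and miR-503-5p at 1.28-fold (0.849 to 1.94), with wide intervals that include 1.

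Mock over CC sets the library of the single exposure against that of the untreated control. It shares the CC library with the comparison before. miR-16-5p was the measured member past 2-fold. It was 2.71-fold higher in Mock (2.44 to 3.00), or 1.42 on the log2 scale of rpm + 1, the ninth highest of 208 ratios. miR-15b-5p was 1.52-fold higher (1.42 to 1.63) and miR-15b-3p 1.34-fold (1.17 to 1.53), both under 2-fold. Thus 1 of 3 measured members was higher by 2-fold or more, beside 12% of the 208 miRNAs, and none was lower, beside 3.85%; the members' median log2 ratio was 0.60 beside 0.28 for all. The log2 ratio of miR-16-5p became 0.91 when values were taken as a share of the listed miRNA reads, under 2-fold; on that share miR-15b-5p was at 0.09 and miR-15b-3p changed sign, to -0.09, while the median of all 208 was -0.22. Below 10 rpm, miR-15a-5p was 3.26-fold higher (1.5 to 7.84) and miR-503-5p 1.78-fold (1.22 to 2.62), while the interval of miR-424-5p, 0.833 to 6.29 around 2.17-fold, included 1.

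RR over Mock sets the library of the repeated exposure against that of the single one. RR also had recovery after each cycle, and each group is 1 library. Number of exposures, recovery, clone and library therefore cannot be told apart. All 3 measured members were lower in RR, and miR-16-5p was past 2-fold. miR-16-5p had a ratio of 0.408 (0.368 to 0.451), which is 2.45-fold lower, and only 5 of 208 miRNAs had a lower log2 ratio than its -1.28. miR-15b-5p was at 0.621-fold (0.578 to 0.668) and miR-15b-3p at 0.651-fold (0.566 to 0.748). Hence 1 of 3 measured members was lower by 2-fold or more, beside 4.81% of the 208 miRNAs, and none was higher, beside 8.17%, with a members' median log2 ratio of -0.68 beside 0.06. The RR and Mock libraries are those of the comparisons above, so these values are not independent of them.

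**Figure D3:**
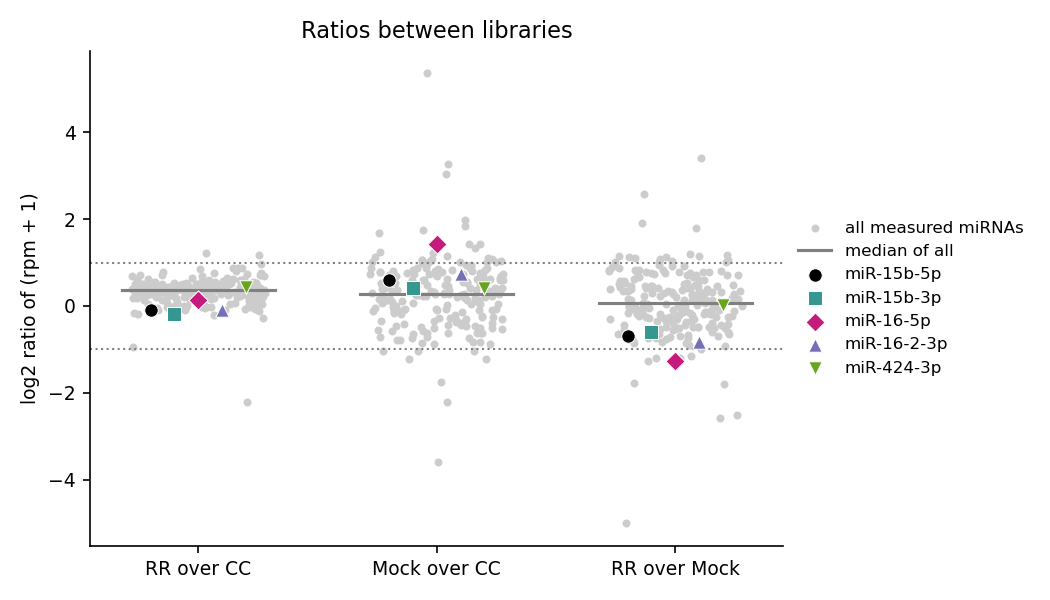
Log2 ratios of rpm + 1 for RR over CC, Mock over CC and RR over Mock; grey points are the 208 measured miRNAs, grey bars their median, dotted lines 2-fold, and coloured symbols the measured members with miR-16-2-3p and miR-424-3p. miR-16-5p passes 2-fold in both comparisons with Mock, at 1.42 and -1.28, and the members lie under the median in RR over CC.

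Markers of blood cells moved with miR-16-5p. miR-16-5p is itself abundant in red blood cells. The 8 blood marker miRNAs with values, out of 9 chosen, summed to 12.5 rpm in RR, 411 rpm in Mock and 9.56 rpm in CC, with 4 of them at 0 reads in RR, 0 in Mock and 5 in CC. Most of this was miR-486-5p, which had 11.5 rpm in RR, 398 rpm in Mock and 8.73 rpm in CC. miR-451a, the defining miRNA of red cells, had 0.764 rpm in RR (8 reads), 7.71 rpm in Mock (82 reads) and 0.743 rpm in CC (8 reads). The part of blood cell RNA in the difference of miR-16-5p between libraries was not tested. The 4 muscle markers summed to 409 rpm in RR, 345 rpm in Mock and 341 rpm in CC. Most of this was miR-1-3p, with 404, 319 and 338 rpm in the same order. Its ratio of Mock over CC was 0.942-fold (0.899 to 0.987). By contrast, miR-206 had 3.63 rpm in RR, 25.5 rpm in Mock and 1.76 rpm in CC. In that order miR-133a-3p had 9, 7 and 11 reads, and miR-133b had 2, 5 and 0 reads. The 5 mesenchymal and endothelial markers with values, of 7 chosen, summed to 88.4 rpm in RR, 72.5 rpm in Mock and 61.6 rpm in CC. Nearly all of this was miR-126-3p, with 80.5 rpm in RR, 65.8 rpm in Mock and 53.9 rpm in CC. miR-143-3p, miR-126-5p and miR-145-5p had ratios of Mock over CC below 1, and miR-199a-5p had 0 reads in RR, 12 in Mock and 2 in CC.

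GC content of the miRNA moved with the ratios to Mock as well. Across the 208 miRNAs, which share 2 libraries, Spearman's rho between GC content and log2 ratio came to 0.05 in RR over CC, -0.55 in Mock over CC and 0.60 in RR over Mock. The measured members are of low to middle GC content, 36.4% for miR-15b-3p, 40.9% for miR-15b-5p and 45.5% for miR-16-5p. After each library was freed of its linear GC trend, miR-16-5p kept log2 ratios of 1.29 in Mock over CC and -1.14 in RR over Mock. miR-15b-5p came to 0.34 and -0.40 in these comparisons, and miR-15b-3p to 0.02 and -0.18. All of these ratios lay nearer to 0 than before, and miR-16-5p still stood apart from both arms of miR-15b. The part of GC content in the differences between libraries was not tested.

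**Figure D4:**
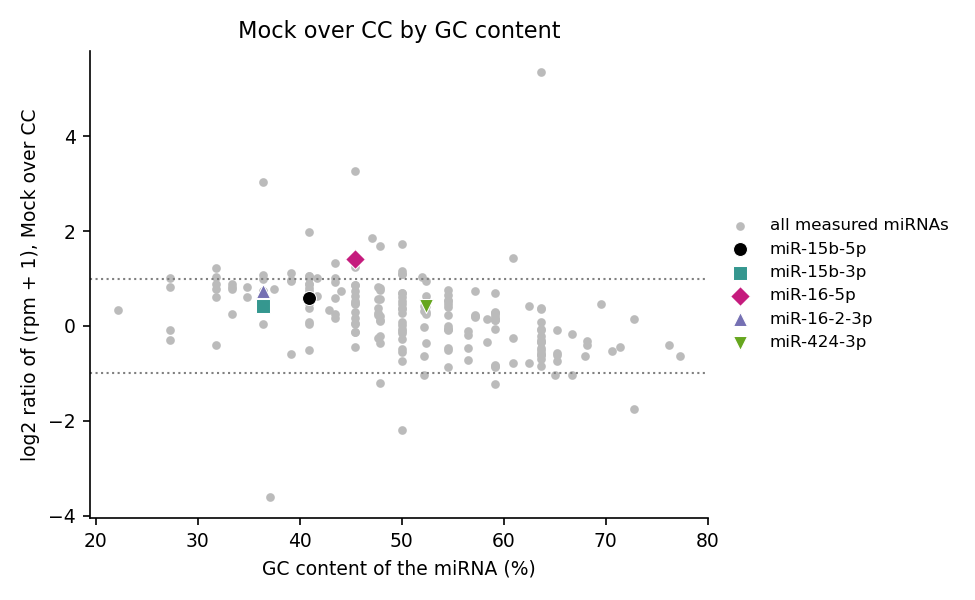
Log2 ratio of rpm + 1, Mock over CC, against the GC content of each of the 208 measured miRNAs (grey), with the measured members, miR-16-2-3p and miR-424-3p in colour and dotted lines at 2-fold. miRNAs of low GC content tend to stand higher in Mock; among the members miR-16-5p (45.5% GC, log2 ratio 1.42) is the highest.

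The hairpins are shown because both arms of several were sequenced, and the arm that prevailed differed between hairpins. RefSeq hairpins (GRCh38.p14) are given 5′ to 3′ with the 5p and 3p arms in capitals.
MIR15B: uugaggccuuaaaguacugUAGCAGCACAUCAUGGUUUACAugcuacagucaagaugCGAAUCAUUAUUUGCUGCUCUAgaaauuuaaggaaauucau
MIR16-2: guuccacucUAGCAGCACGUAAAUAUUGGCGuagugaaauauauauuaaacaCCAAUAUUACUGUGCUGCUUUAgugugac
MIR424: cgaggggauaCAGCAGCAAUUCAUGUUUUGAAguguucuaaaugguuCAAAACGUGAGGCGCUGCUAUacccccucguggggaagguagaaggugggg
In MIR15B the 5p arm prevailed, by 3.54-fold in RR (3.14 to 4.01), 3.71-fold in Mock (3.37 to 4.09) and 3.27-fold in CC (2.92 to 3.67). The balance of its arms did not differ beyond counting error: RR relative to CC was 1.08-fold (0.914 to 1.28), Mock relative to CC 1.13-fold (0.974 to 1.32) and RR relative to Mock 0.955-fold (0.816 to 1.12). On the log2 scale the shift for RR over CC was 0.11, beside a median of 0.05 and a range of -0.79 to 0.63 over the 38 hairpins with both arms at 10 rpm or more. miR-15b-5p and miR-15b-3p thus kept step.

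MIR16-2 behaved otherwise. Its 3p arm, miR-16-2-3p, which belongs to this hairpin alone, had 28.9 rpm in RR (25.8 to 32.4), 51.8 rpm in Mock (47.6 to 56.3) and 30.8 rpm in CC (27.6 to 34.3). Mock over CC was 1.68-fold (1.46 to 1.93), between the values of miR-15b-5p and miR-16-5p, and RR over CC was 0.938-fold (0.800 to 1.10). Reads of miR-16-5p were 1.79 for each read of miR-16-2-3p in RR (1.55 to 2.06), 2.44 in Mock (2.21 to 2.70) and 1.52 in CC (1.32 to 1.75). This balance was 1.61-fold higher in Mock than in CC (1.35 to 1.92) and 0.730-fold in RR relative to Mock (0.613 to 0.871). In RR relative to CC it was 1.18-fold, with an interval that includes 1 (0.961 to 1.44). The log2 shift of 0.69 in Mock over CC stood beside a median of 0.17 over the 38 hairpins. It was above the shift of most of them, within a range of -1.21 to 2.84 whose upper end is miR-21 alone. miR-16-5p also comes from MIR16-1, whose own 3p arm, miR-16-1-3p, had 3 reads in RR, 5 in Mock and 4 in CC. miR-15a-3p, also of the DLEU2 cluster, had 2 reads in RR, 1 in Mock and 0 in CC. Arms assigned to the SMC4 hairpins alone thus had far more reads than those of the DLEU2 hairpins alone.

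In MIR424 and MIR195 the arm outside the seed family was the more abundant one. miR-424-3p had 35.9 rpm in RR (376 reads), 35.3 rpm in Mock (375 reads) and 26.2 rpm in CC (282 reads), where miR-424-5p had 15 reads or fewer. The 3p arm exceeded the 5p arm 62.7-fold in RR (28.5 to 172), 25-fold in Mock (15 to 45.1) and 40.3-fold in CC (19.3 to 101). miR-195-3p had 17 reads in RR, 26 in Mock and 21 in CC, which was 4.25-fold (1.39 to 17.4), 6.5-fold (2.26 to 25.6) and 10.5-fold (2.57 to 92.4) the reads of miR-195-5p. More 3p than 5p reads were common in these libraries: 22 of the 38 hairpins with both arms measured had them in RR, 21 in Mock and 22 in CC. In MIR503 the 5p arm was ahead, at 5.60-fold in RR (2.83 to 12.3), 19.8-fold in Mock (7.42 to 74.3) and 4.09-fold in CC (2.08 to 8.77), resting on 10, 4 and 11 reads of miR-503-3p. Its balance was 4.83-fold higher in Mock than in CC (1.32 to 21.8). The intervals of RR relative to CC (0.478 to 3.94) and of RR relative to Mock (0.0623 to 1.05) included 1.

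**Figure D5:**
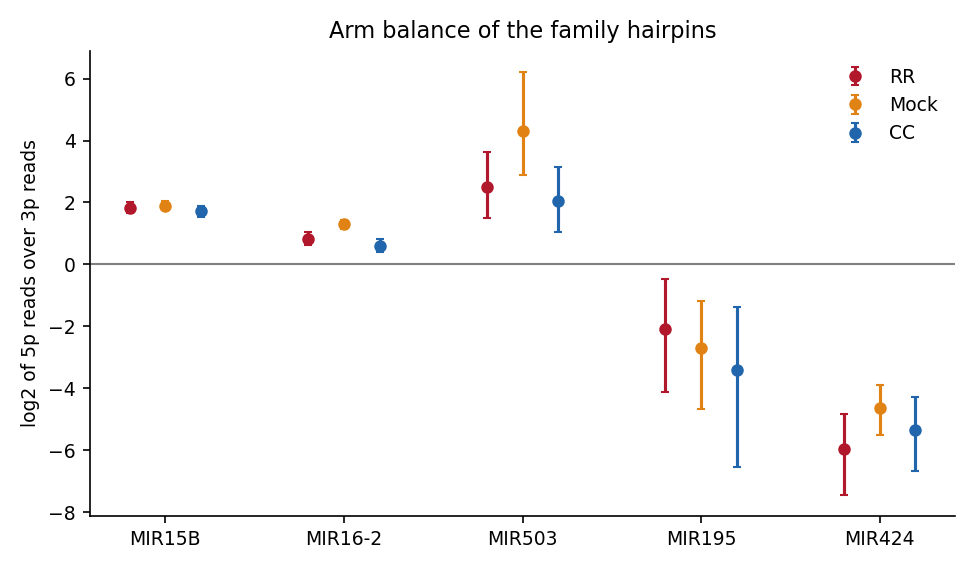
Log2 of the reads of the 5p arm over those of the 3p arm for 5 family hairpins in RR, Mock and CC, with bars for the exact 95% interval; a value above 0 means more 5p reads. MIR15B, MIR16-2 and MIR503 lie above 0 and MIR195 and MIR424 below it in each library; for MIR16-2 the 5p reads can also come from MIR16-1.

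Of the X-linked cluster, miR-424-3p stood below miR-16-5p in its ratio of Mock over CC. It was 1.37-fold in RR over CC (1.17 to 1.61), 1.35-fold in Mock over CC (1.15 to 1.58) and 1.02-fold in RR over Mock (0.880 to 1.18). Of the 11 other arms and cluster neighbours with values, from 15 chosen, 2 had a mean of 10 rpm or more, miR-16-2-3p and miR-424-3p, and neither differed by 2-fold, beside 1.44% of the 208 in RR over CC, 15.9% in Mock over CC and 13% in RR over Mock. A count over so few says nothing about the neighbours as a group. miR-450a-5p had 3.53 rpm in RR, 5.17 rpm in Mock and 2.97 rpm in CC, miR-450b-5p 4.49, 5.45 and 3.90 rpm, and miR-542-3p 1.62, 1.5 and 1.86 rpm in that order. miR-497-5p, the neighbour of MIR195, was among the 15 chosen but had no value among the miRNAs used here.

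miR-103a-3p and miR-107 carry AGCAGCA at bases 1 to 7, one base off the family's place, and miR-107 is known to repress CDK6. miR-103a-3p had 187 rpm in RR, 416 rpm in Mock and 128 rpm in CC, and was 3.24-fold higher in Mock than in CC (3.05 to 3.44). miR-107 had 4.96 rpm in RR, 14.5 rpm in Mock and 4.46 rpm in CC, 3.25-fold higher in Mock than in CC (2.34 to 4.59). Its mean of 7.97 rpm was below 10 rpm, so its folds were not counted. miR-103a-3p and miR-107 differ from each other by a single base, so their split is uncertain. In RR over Mock both were lower, miR-103a-3p by 2.22-fold (2.10 to 2.34) and miR-107 by 2.92-fold (2.12 to 4.08).

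Other miRNAs known to repress regulators of the G1/S transition were set beside the family. Of 22 chosen, 17 had values and 10 a mean of 10 rpm or more. In RR over CC none of the 10 differed by 2-fold, beside 1.44% of the 208 miRNAs, with a median log2 ratio of 0.37 beside 0.36 for all 208. In Mock over CC 2 were higher, miR-103a-3p and the E2F1 repressor miR-20a-5p (2.18-fold, 2.11 to 2.26), and 1 was lower, miR-193b-3p, which targets CCND1 (2.39-fold lower, 2.07 to 2.75). Their median was 0.71 beside 0.28, and 15.9% of the 208 differed by 2-fold in either direction. In RR over Mock miR-193b-3p was 2.33-fold higher (2.02 to 2.69) and miR-103a-3p lower, beside 13% of the 208. The median there was -0.21 beside 0.06. Counts over 10 miRNAs, which went in both directions, say nothing about the list as a group.

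Profiles over the 3 libraries placed both arms of miR-15b together and miR-16-5p elsewhere. Likeness was the Euclidean distance between log2 values of rpm + 1 centred over the libraries, so that only 3 values describe a miRNA. Nearest to miR-15b-5p were miR-16-2-3p (distance 0.11), miR-182-5p (0.12) and miR-15b-3p (0.13). Nearest to miR-15b-3p were miR-15b-5p (0.13), miR-181a-5p (0.19) and miR-182-5p (0.20). Nearest to miR-16-5p were let-7c-5p (0.28), miR-20a-5p (0.28) and miR-103a-3p (0.29), while miR-15b-5p was 34th in order at 0.60.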

How the data were processed

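Total RNA of CAL-27 clones was turned into small RNA libraries with a New England Biolabs ligation kit and sequenced on an Illumina NovaSeq, per the labels' protocols. Bowtie and GRCh38 appear in the submitters' processing notes without role or version; the sources used here do not describe trimming, the miRNA reference or multi-mapping. The deposited values, called TPM by the authors, behave as rpm: 100% of the 1149 values in each library were whole multiples, within 0.01 of a read, of 1 step per library (0.0955 rpm in RR, 0.0940 in Mock, 0.0929 in CC), so read numbers were recovered. The deposited table also gives miRNA sequences and lengths in bases.

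With 1 library per group no count model was fitted. Ratios have exact conditional (Clopper-Pearson) 95% intervals, levels Poisson intervals, and ratios of ratios exact conditional odds ratio intervals. A miRNA was counted when its mean was 10 rpm or more and its log2 ratio, after adding 1 rpm, was 2-fold or more in size. Columns were tied to libraries through the treatment tags. Members, lists and the rule for named miRNAs (members, seed sharers, other arms and neighbours, G1/S list, markers, 3 nearest profiles) were chosen with earlier results of these data known. Sequences and positions are RefSeq's (GRCh38.p14) and host genes those of GENCODE release 29. The counting was tested on simulated data that held counting error only, so that test does not cover the spread between libraries. Alternatives covered pseudocount, filter, threshold, scaling and GC trend; one, a filter on the 2 libraries compared, was chosen after seeing the data. Computation ran in Python 3.11.15 with scipy 1.17.1, numpy 2.4.6 and pandas 2.3.3, and plotting in matplotlib 3.10.9.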

Additional observations from a re-analysis of the deposited data

How the results depend on the processing

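No paired analysis was possible because each group has 1 library. The counted member, miR-16-5p, kept its direction in Mock over CC and in RR over Mock under each alternative. RR over CC had no counted member whose direction could reverse. Ratios under 2-fold did change sign with the scale, such as miR-16-5p in RR over CC and miR-15b-3p in Mock over CC. In RR over CC no member was counted under any alternative. In Mock over CC the 1 member counted, miR-16-5p, became 2 when a mean of 1 rpm sufficed and with no filter (miR-15a-5p added) and 2 at 1.5-fold (miR-15b-5p added). It became 0 at 4-fold and 0 as a share of the listed miRNA reads. In RR over Mock the 1 member became 3 at 1.5-fold and 0 at 4-fold. Median-ratio scaling, a common total that leaves out the 10 most abundant miRNAs, the GC trend, pseudocounts of 0.1 and 10 and the filter on the 2 libraries compared left these counts at 0, 1 and 1. The arm balance of miR-15b moved within its counting interval when the GC trend was removed. Of 126 values of single members under these alternatives, 96 stayed within the counting interval of the ratio and 30 moved outside it. Nearly all of those 30 were values of miR-15b-5p, miR-15b-3p and miR-16-5p, whose intervals are narrow. The scarce members have wide intervals, so staying within them says little about their stability.

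Counts over all miRNAs past the threshold were 3 in RR over CC, 33 in Mock over CC and 27 in RR over Mock. They were 1, 16 and 16 with a pseudocount of 10; 7, 57 and 50 when a mean of 1 rpm sufficed; 8, 60 and 57 with no filter; 30, 96 and 76 at 1.5-fold; and 1, 5 and 5 at 4-fold. With the GC trend removed Mock over CC had 21 and RR over Mock 14. The split of 25 higher and 8 lower in Mock over CC became 10 and 18 with median-ratio scaling, 10 and 19 with the common total and 7 and 31 as a share of the listed miRNA reads. In RR over CC the split of 2 and 1 became 0 and 2 under each of those. In RR over Mock 17 and 10 became 12 and 10 with median-ratio scaling and 25 and 8 as a share. Depth limits what can be said of miR-195-5p, miR-424-5p and miR-15a-5p, which had 2 to 29 reads a library.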
